A study of Mus musculus with 3 samples.

Results

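The genes described here are the 10 that encode the mTOR kinase, its complex partners and the proteins that hold it in check: Mtor, Mlst8, Rptor, Rictor, Akt1s1, Rheb, Tsc1, Tsc2, Ddit4 and Sesn2. They were chosen by name for these roles, with earlier results of these data known. All 10 were among the 20660 genes named on the array, on 12 probes, and all 10 passed the filter on dim probes, as did 13181 genes in all. Each of 3 two-colour arrays held RNA of bone marrow-derived macrophages from C57BL/6J mice that had been given adiponectin, a hormone of fat cells, at 12 µg/ml for 18 h, and RNA of untreated macrophages in the other dye. Both groups are labelled wild type (WT). Both had grown to macrophages with 30% of their medium taken from cultures of L929 fibroblasts, which release the growth factor CSF-1, and both were kept in 0.1% serum from 24 h before the treatment began. The 3 arrays are labelled as biological replicates, and how many animals gave the cells is not stated in the labels, so p-values measure the spread between these samples. The extraction text gives the adiponectin dose in mg/ml where the treatment text gives µg/ml, which is the unit used here.

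mTOR is a protein kinase that couples nutrients and growth factors to protein synthesis, lysosome formation and autophagy. It works in the complex mTORC1, defined by raptor (Rptor), and in the complex mTORC2, defined by rictor (Rictor), and mLST8 is a subunit of both. The small GTPase Rheb switches mTORC1 on at the lysosome. The TSC1-TSC2 complex turns Rheb off, and the stress proteins REDD1 (Ddit4) and sestrin 2 (Sesn2) restrain mTORC1 through TSC and through amino acid sensing respectively. In macrophages the pathway is known to shape cytokine production and metabolism.

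The 250 bases before the RefSeq transcription start are shown, 5′ to 3′ on the gene's own strand, for Ddit4 and Rheb, which rose, for Sesn2, the other stress-induced inhibitor, and for Rptor, which fell. Capitals mark ACGTG, the core to which hypoxia-inducible factors bind, on either strand. All 10 genes matched the RefSeq table, whose build is GRCm38.p6. The windows lie at chr10:59951771-59952020 (minus strand) for Ddit4, chr5:24842362-24842611 (minus strand) for Rheb, chr4:132510457-132510706 (minus strand) for Sesn2 and chr11:119602655-119602904 (plus strand) for Rptor.
Ddit4: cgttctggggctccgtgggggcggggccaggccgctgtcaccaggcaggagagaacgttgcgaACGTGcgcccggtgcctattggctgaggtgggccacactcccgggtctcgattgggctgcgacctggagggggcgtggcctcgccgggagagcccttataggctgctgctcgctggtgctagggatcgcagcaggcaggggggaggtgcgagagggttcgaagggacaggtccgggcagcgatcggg
Rheb: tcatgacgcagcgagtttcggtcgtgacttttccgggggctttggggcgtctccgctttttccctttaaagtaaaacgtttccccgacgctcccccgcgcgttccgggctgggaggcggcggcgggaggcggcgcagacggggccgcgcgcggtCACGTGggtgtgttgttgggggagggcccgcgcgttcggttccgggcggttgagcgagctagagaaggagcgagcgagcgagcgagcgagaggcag
Sesn2: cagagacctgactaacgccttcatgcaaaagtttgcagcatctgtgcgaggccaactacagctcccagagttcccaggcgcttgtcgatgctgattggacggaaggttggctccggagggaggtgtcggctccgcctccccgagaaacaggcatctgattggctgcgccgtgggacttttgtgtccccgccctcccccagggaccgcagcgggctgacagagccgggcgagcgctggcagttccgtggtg
Rptor: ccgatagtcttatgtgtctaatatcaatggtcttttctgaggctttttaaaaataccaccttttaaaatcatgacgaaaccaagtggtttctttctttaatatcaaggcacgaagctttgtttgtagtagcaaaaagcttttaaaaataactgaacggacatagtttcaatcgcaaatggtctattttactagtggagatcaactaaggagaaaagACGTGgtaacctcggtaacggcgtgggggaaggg

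The core ACGTG was found in the windows of Ddit4, Rheb and Rptor, which is 3 of the 10 genes, and in 16.6% of the 32851 mouse promoter windows searched. In Ddit4 it lay 187 to 183 bases before the start. In Rheb it was read on both strands, 96 to 92 and 95 to 91 bases before the start, as the E-box CACGTG. In Rptor it lay 34 to 30 bases before the start. The gene with the largest rise and the gene with the largest fall of the 10 both held the core, and the Sesn2 window held none. GC content was 70.0% in the Ddit4 window, 68.0% in Rheb, 63.2% in Sesn2 and 37.6% in Rptor.

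Other motifs were searched on both strands in the same windows. CCAAT was found in Ddit4, Sesn2, Mtor and Rictor (33.8% of all windows), and the ATF or CREB core TGACG in Rptor, Tsc1 and Rheb (17.8%). The pattern TGACNNNGC of the antioxidant response element was found in Sesn2 and Rheb (10.2%), where in Rheb 1 of its matches overlaps the TGACG match and the other overlaps CACGTG. The loose NF-kB pattern GGGNNNNNCC was found in Ddit4, Rictor, Tsc1, Rheb, Akt1s1 and Mlst8 (45.8%), with overlapping matches in Ddit4, Rheb and Akt1s1. No member's window held the C/EBP and ATF composite TGATGNAA (3.45% of all windows), the FOXO motif GTAAACA (3.17%), the AP-1 motif TGANTCA (6.75%) or the glucocorticoid receptor motif AGAACA (16.1%). TATAAA, searched on the gene's strand alone, was in no member's window and in 7.59% of all. A match is a description of these letters and does not show that a factor binds there.

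In the libraries as a whole, 46.9%, 47.5% and 43.9% of probes were well above background in the treated channel of replicates 1, 2 and 3, against 54.3%, 53.4% and 53.9% in the untreated channel. Log2 ratios correlated across the tested genes at 0.943 to 0.968 between arrays, where genes are not independent replicates. Of 8 macrophage markers listed, 7 were found on the array and all 7 were well above background in all 6 channel readings. Of these 7, 6 fell and Cd14 rose, and their summed level ranged from 154636 to 191442 in treated against 309456 to 336121 in untreated channels. Of 36 markers of 8 other cell types found on the array, 18 were well above background in no reading and 11 in all 6 readings. The 3 measured fibroblast markers of 5 (Col1a2, Dcn and Pdgfrb) were all higher after treatment, and their summed level was 454 to 519 against 328 to 361. In 4 other lists a single marker rose while none fell, and the sums given cover the measured markers alone. These were Cd3e of T or NK cells (the only one measured, 707 to 838 against 392 to 407), Zbtb46 of dendritic cells (sum 331 to 370 against 169 to 172), Tpsb2 of mast cells (the only one measured, 628 to 1080 against 331 to 450) and Kdr of endothelial cells (sum 4237 to 5890 against 2166 to 2579). In the neutrophil list Camp and Elane rose and Mpo and Ltf fell, and the sum was 2929 to 3270 against 2340 to 2747. Of the B cell and erythroid lists only Pax5 and Epor were measured, and neither passed. Their levels were 72.5 to 76.6 against 68.3 to 76.0 and 70.1 to 77.6 against 81.2 to 82.2. The part of these shifts in the results was not tested. In bulk RNA, fewer cells of a type and less RNA per cell cannot be told apart.

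The comparison asked how transcripts of the mTOR machinery differ between macrophages given adiponectin and untreated macrophages. Ddit4 rose 14.0-fold and Rheb 1.54-fold. Rptor, Mlst8, Mtor and Tsc1 fell, by 2.40-fold, 2.19-fold, 1.87-fold and 1.35-fold. Sesn2, Rictor, Akt1s1 and Tsc2 did not pass the test. These calls were made in limma at an adjusted p under 0.05 over all 13181 genes. They hold for arrays normalized by loess: with each array only centred on its median, none of the 10 passed, the changes of Rheb, Rictor and Akt1s1 turned negative, and Ddit4 stayed positive. In that setting the median of all tested genes was itself -1.03, and Rheb, Rictor and Akt1s1 stood 0.47, 0.27 and 0.47 above it.

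The 10 genes thus held 2 higher and 4 lower calls. Over all tested genes, 3229 rose, which is 24.5%, and 6075 fell, which is 46.1%. The share of members that rose (20%) and the share that fell (40%) were therefore near those of all genes. The median log2 change was -0.12 over the members and -0.17 over all tested genes. The 3 treated and 3 untreated levels did not overlap in 9 of the 10 members, beside 75.6% of all genes. With the median of the tested genes set to 0 on each array, the members' split moved to 4 higher and 4 lower, and the share of lower calls among all called genes moved from 65.3% to 51.0%.

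**Figure D1:**
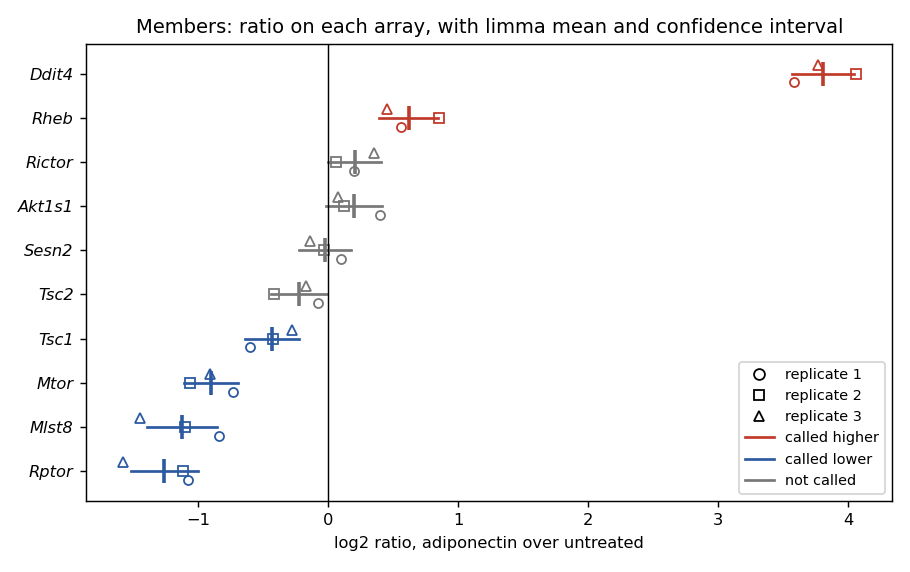
Log2 ratio of adiponectin over untreated for each of the 10 genes, with 1 symbol per array (replicates 1, 2 and 3) and limma's mean with its 95% interval, after loess. Ddit4 stands at 3.81, Rheb at 0.62, and Rptor, Mlst8, Mtor and Tsc1 lie below 0 on all 3 arrays, whereas with median centring in place of loess Rheb lies at -0.55.

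Ddit4 encodes REDD1, a short-lived protein induced by hypoxia, glucocorticoids and other stress that inhibits mTORC1 through the TSC complex. Its normalized intensity was 15589, 17005 and 19902 in the treated channels of replicates 1, 2 and 3 and 1299, 1020 and 1459 in the untreated channels. The lowest treated level stood far above the highest untreated one, so the groups did not overlap. The mean was 17499 ± 2198 (SD, n = 3) after adiponectin and 1259 ± 222 (SD, n = 3) without it. The log2 ratios were 3.59, 4.06 and 3.77, and their mean was 3.81 ± 0.10 (moderated SE, limma adjusted p = 4.62e-08). By log2 change it ranked 26 from the top of the 13181 tested genes. The 95% interval of the log2 change ran from 3.57 to 4.04.

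The size of the Ddit4 rise changed little with most settings. Across the other background corrections, filters, centrings on the tested genes, a dye term, leaving out each array, the scanner software's ratio and the authors' deposited table, it ranged from 3.68 to 3.98 on the log2 scale, with limma adjusted p between 5.82e-10 and 0.00013. When the arrays were centred on their medians without loess, they gave 1.84, 4.31 and 1.79, and the mean of 2.65 no longer passed (limma adjusted p = 0.0763). The array with the high value there is replicate 2, on which treated RNA carried Cy5 and not Cy3. Under median centring the median of all tested genes was itself -1.03, and Ddit4 stood 3.67 above it.

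Sesn2 encodes sestrin 2, a stress-induced leucine sensor that restrains mTORC1 by binding GATOR2. Its intensity was 4424, 3987 and 3769 after adiponectin and 4130, 4085 and 4151 without it. The untreated levels lay between the treated ones, and Sesn2 was the 1 member whose groups overlapped. Its log2 ratios were 0.10, -0.03 and -0.14, with a mean of -0.02 ± 0.086 (moderated SE, limma adjusted p = 0.812). The 95% interval of its change under loess ran from -0.22 to 0.17. Under median centring the arrays gave -1.64, 0.21 and -2.11, with a mean of -1.18 (limma adjusted p = 0.178), 0.15 below the median of all genes in that setting. On each array the Ddit4 log2 ratio exceeded that of Sesn2, by 3.49, 4.09 and 3.91, with a mean of 3.83 ± 0.31 (SD, n = 3 arrays). The exact two-sided sign-flip p was 0.25, the smallest that 3 arrays allow, and 0.25 after adjustment over the 3 pairs of members compared, all of which were chosen after their values were seen.

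**Figure D2:**
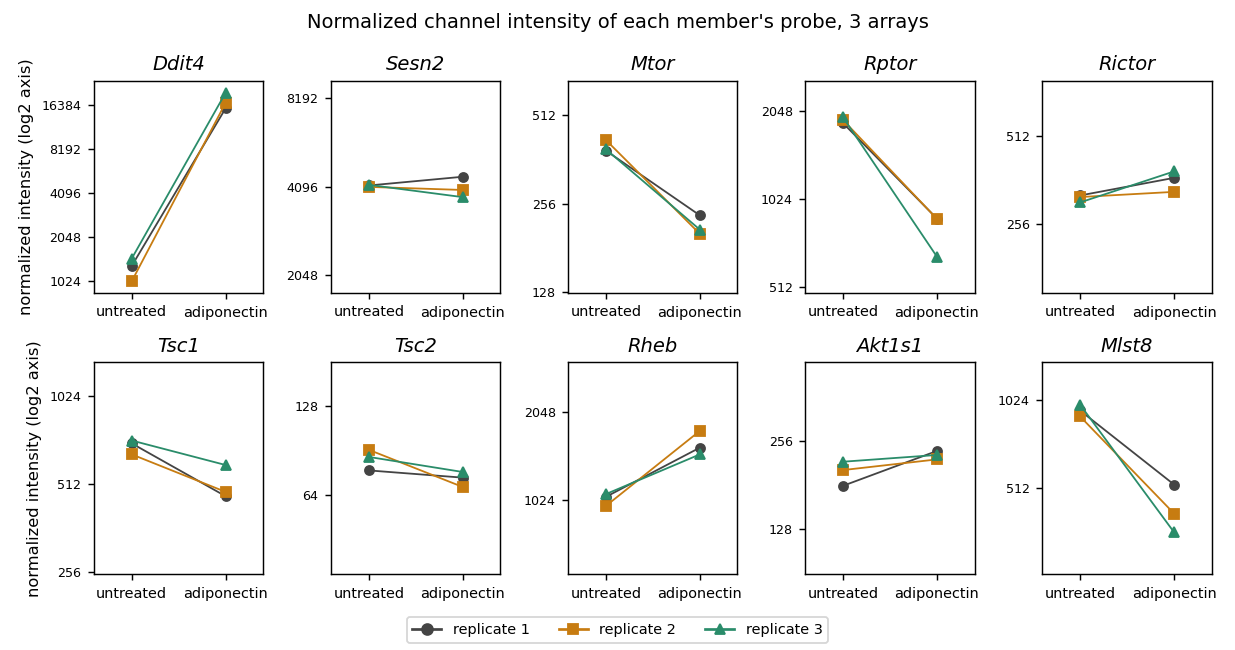
Normalized channel intensity (log2 axis, with a range of its own in each panel) of the probe used for each gene, in untreated and adiponectin channels, with a line joining the channels of 1 array. The lines of Ddit4 rise from about 1020 to 1459 up to 15589 to 19902, those of Rptor, Mlst8 and Mtor fall, and those of Sesn2 cross.

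Mtor encodes the kinase itself. Its intensity was 233, 202 and 209 after adiponectin and 388, 422 and 392 without it, and the groups did not overlap. The log2 ratios of -0.73, -1.06 and -0.91 gave a mean of -0.90 ± 0.092 (moderated SE, limma adjusted p = 3.59e-05), so treated macrophages held 0.535 of the untreated level. Mlst8, the subunit that binds the kinase domain in both complexes, measured 526, 419 and 362 against 941, 898 and 985. All treated levels lay below all untreated ones, the log2 ratios were -0.84, -1.10 and -1.45, and the mean was -1.13 ± 0.12 (moderated SE, limma adjusted p = 4.04e-05). Both genes lost their calls only under median centring, with log2 changes of -1.80 for Mtor (limma adjusted p = 0.0741) and -2.24 for Mlst8 (limma adjusted p = 0.0742). Relative to the median of all genes in that setting, these changes were -0.77 and -1.22.

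The transcripts of raptor and rictor, the proteins that give the 2 complexes their identity, received different calls. Rptor, whose product recruits substrates to mTORC1, measured 877, 876 and 650 after adiponectin and 1859, 1904 and 1946 without it. The groups were well separated, and replicate 3 had the lowest treated level. The log2 ratios of -1.08, -1.12 and -1.58 gave a mean of -1.26 ± 0.11 (moderated SE, limma adjusted p = 1.57e-05). Across the alternatives other than median centring the log2 change ranged from -1.35 to -1.09. Median centring gave -2.43 (limma adjusted p = 0.0756), which was -1.40 relative to the median of all genes in that setting.

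Rictor, the scaffold of mTORC2, measured 369, 331 and 388 after adiponectin and 321, 317 and 304 without it. The treated levels were all higher, by a small margin on replicate 2. The log2 ratios of 0.20, 0.06 and 0.35 gave a mean of 0.20 ± 0.089 (moderated SE, 95% interval -0.00 to 0.41), which did not pass (limma adjusted p = 0.0707). Rictor passed as higher in 6 of 13 alternatives, for example at 0.37 with the tested genes centred to 0 (limma adjusted p = 0.00529), at 0.28 in the authors' deposited table (limma adjusted p = 0.0374) and at 0.28 without replicate 2 (limma adjusted p = 0.0275). It turned to -0.75 under median centring, 0.27 above the median of all genes in that setting. The Rptor log2 ratio was below that of Rictor on every array, by -1.28, -1.18 and -1.93, with a mean of -1.46 ± 0.41 (SD, n = 3 arrays, exact sign-flip p = 0.25, the smallest possible).

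Akt1s1 encodes PRAS40, a raptor-bound inhibitor of mTORC1 that AKT inactivates. Its intensity was 236, 221 and 229 after adiponectin and 180, 203 and 217 without it. All treated levels were higher, but the gap between the closest was small. The log2 ratios of 0.40, 0.12 and 0.08 gave a mean of 0.20 ± 0.093 (moderated SE), which did not pass (limma adjusted p = 0.0879). It passed as higher in 4 of 13 alternatives, among them 0.37 with arrays centred on the tested genes (limma adjusted p = 0.00527). Under median centring it was -0.55, 0.47 above the median of all genes in that setting.

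Rheb, the GTPase that activates mTORC1, measured 1550, 1769 and 1471 after adiponectin and 1053, 981 and 1076 without it. The groups did not overlap, and replicate 2 showed the widest gap. The log2 ratios of 0.56, 0.85 and 0.45 gave a mean of 0.62 ± 0.099 (moderated SE, limma adjusted p = 0.000532). A second measured Rheb probe gave 0.48, 0.72 and 0.24. The remaining probe, well above background in no channel, had a mean of -0.04. The Rheb call held under each alternative but median centring, where the arrays gave -1.10, 0.87 and -1.43 and the mean was -0.55 (limma adjusted p = 0.491), 0.47 above the median of all genes in that setting.

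Tsc1 encodes hamartin, which stabilizes the TSC complex. Its intensity was 465, 481 and 594 after adiponectin and 704, 646 and 720 without it, with no overlap, although replicate 3 came close. The log2 ratios of -0.60, -0.43 and -0.28 gave a mean of -0.43 ± 0.091 (moderated SE, limma adjusted p = 0.00264). The call was lost with the scanner software's ratio (-0.30, limma adjusted p = 0.0786) and under median centring (-1.54, limma adjusted p = 0.0887). The value under median centring was -0.52 relative to the median of all genes in that setting. The Rheb log2 ratio exceeded that of Tsc1 by 1.16, 1.28 and 0.73, with a mean of 1.05 ± 0.29 (SD, n = 3 arrays, exact sign-flip p = 0.25, the smallest possible).

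Tsc2 encodes tuberin, the subunit that acts as the GTPase-activating protein for Rheb. Its probe was near background: it was well above it in 3 of 3 untreated and in 0 of 3 treated channels. The intensity was 73.1, 67.9 and 76.4 after adiponectin and 77.3, 90.9 and 86.0 without it. All treated levels were lower, by a small margin on the closest, and rest on signals near background. The fitted log2 change of -0.22 ± 0.094 (moderated SE) did not pass (limma adjusted p = 0.0589). It passed as lower in 6 of 12 alternatives, with -0.74 for normexp without an offset (limma adjusted p = 0.00787), -1.59 for the scanner software's ratio (limma adjusted p = 0.0355) and -0.37 in the authors' deposited table (limma adjusted p = 0.0176). Centred on the tested genes it was -0.05 (limma adjusted p = 0.625). Under median centring it was -0.23, 0.80 above the median of all genes in that setting. The size of this change depends on the background correction.

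**Figure D3:**
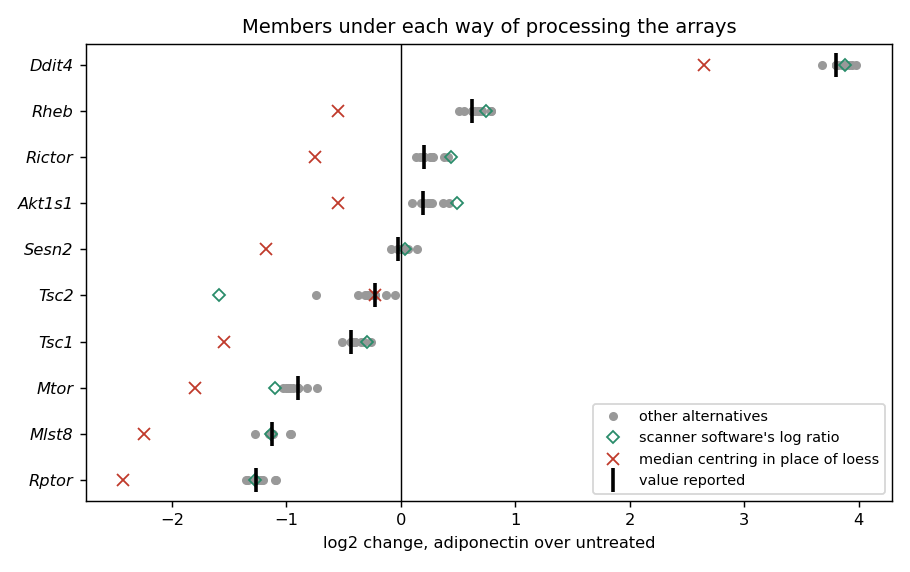
Log2 change of each gene as reported (black bar) and under every alternative way of processing (grey dots), with the scanner software's ratio and median centring in place of loess marked apart. Median centring puts every gene except Tsc2 well below its reported value, turns Rheb, Rictor and Akt1s1 below 0 and leaves Ddit4 at 2.65, while Tsc2 spreads from -1.59 to -0.05.

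A dye coefficient was fitted for each gene, since replicate 2 had the dyes exchanged. As no other array had this exchange, the coefficient compares replicate 2 with replicates 1 and 3. The fit leaves 1 residual degree of freedom and cannot tell a dye effect from other traits of replicate 2. No member had a dye coefficient past the threshold, and the lowest adjusted p was that of Ddit4 (coefficient 0.19, limma adjusted p = 0.394), while 44 genes in all passed. The genes whose 3 log2 ratios lay nearest to those of Ddit4, by Euclidean distance over the 3 arrays, were Hamp (distance 0.107), the gene of the iron hormone hepcidin, Gem (0.121), which encodes a small GTPase, and the gene model Gm15056 (0.227). Hamp had log2 ratios of 3.57, 4.15 and 3.72, so that it shared with Ddit4 the highest value on replicate 2. Nearest to Sesn2 were Zpbp (0.0323), Gstcd (0.0348) and Preb (0.0354), all close to 0 on every array. Over 3 arrays such nearness is a description.

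Of 89 further genes of the pathway, 85 were measured, and 21 rose and 42 fell in limma. These are 24.7% and 49.4%, near the 24.5% and 46.1% of all genes, and their median log2 change was -0.26. The changes named next have limma adjusted p of 0.000619 or below unless another is given, and under median centring no gene passed. The median of all tested genes was itself -1.03 under median centring, so values given for that setting are to be read against it. Among 8 further TOR complex partners and assembly factors, 5 fell, none rose and the median was -0.49. Prr5l, a partner of mTORC2, changed by -1.19 on the log2 scale, Tbc1d7, a further TSC subunit, by -1.18, and the assembly factor Tti1 by -0.62. Deptor, an inhibitor bound to both complexes, measured 88.2, 69.5 and 95.0 after adiponectin against 198, 175 and 198. It was not well above background in any treated channel, so its fitted log2 change of -1.18 (-1.01 with the tested genes centred to 0) rests on treated signals near background. The Deptor change was -2.67 for normexp without an offset, -4.64 for the scanner software's ratio and -1.72 in the authors' deposited table. Its size thus depends on the background correction.

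The relatives of Sesn2 moved apart. Sesn1, a p53-responsive sestrin, measured 496, 583 and 505 after adiponectin and 2017, 1946 and 1894 without it. The groups were far apart, and the log2 change was -1.89 ± 0.089 (moderated SE, limma adjusted p = 5.31e-07). Sesn3, a FOXO-responsive sestrin, measured 245, 304 and 244 against 156, 160 and 150. Its log2 change was 0.76 ± 0.089 (moderated SE, limma adjusted p = 8.23e-05). Under median centring it was 0.066 (limma adjusted p = 0.925), where the median of all tested genes was -1.03. Of the 3 sestrin genes, then, 1 fell, 1 rose and Sesn2 did not pass, all under loess. Ddit4l, the relative of Ddit4, was not measured.

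In the lysosomal amino acid sensing list, 12 of 13 genes were measured, 3 rose and 5 fell, and the list's median was -0.21. The Ragulator subunits Lamtor1 (-1.27) and Lamtor4 (-1.16) and the arginine sensor Slc38a9 (-1.24, with -0.70 and -0.81 on dimmer probes) fell, and Fnip1, a folliculin partner, rose (0.62, but -0.55 under median centring). Of 13 genes listed with the GATOR and KICSTOR complexes, which relay amino acid supply to the Rag GTPases, 9 fell and 2 rose, with a median of -0.57. These counts include Castor1 (0.41, limma adjusted p = 0.00168) and Castor2 (-0.73), which do not encode subunits of the complexes. Seh1l (-0.91), Mios (-0.89) and the KICSTOR subunit Kptn (-0.79) fell, although a dimmer Seh1l probe gave 0.17. Wdr59, a subunit of GATOR2, went the other way: it measured 1225, 1256 and 1222 after adiponectin and 235, 202 and 234 without it. Its log2 change was 2.47 ± 0.089 (moderated SE, limma adjusted p = 1.61e-07).

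Among PI3K, AKT and AMPK genes, 23 of 24 were measured, 5 rose and 13 fell, and the list's median was -0.36. The AMPK subunits Prkag2 (-1.99 ± 0.095, moderated SE) and Prkaa1 (-1.93 ± 0.089, moderated SE) had the largest falls of the list. Prkaa1, a catalytic subunit, measured 446, 346 and 398 after adiponectin and 1543, 1456 and 1525 without it. Prkaa2, the other catalytic subunit, did not pass at 0.076 (limma adjusted p = 0.459). It was well above background in 1 of 3 treated channels. The insulin receptor gene Insr fell by 1.27 on the log2 scale, with -0.31 and -0.29 on dimmer probes, and the adaptor gene Irs2 rose by 1.09, but stood at -0.09 under median centring. Of 20 measured mTOR substrates and effectors of 21, 6 rose and 7 fell, and the list's median was 0.0056. Sgk1, a kinase that mTORC2 activates, rose to 23092, 23940 and 17187 from 4513, 4212 and 4383, a log2 change of 2.28 ± 0.11 (moderated SE, limma adjusted p = 6.39e-07). Tfeb, the lysosomal transcription factor that mTORC1 restrains, rose by 0.95 (-0.18 under median centring). The lipin gene Lpin1, well above background in 2 of 3 treated channels, changed by -1.11 and the autophagy gene Rb1cc1 by -1.38, the latter with -0.19 on a dimmer probe.

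**Figure D4:**
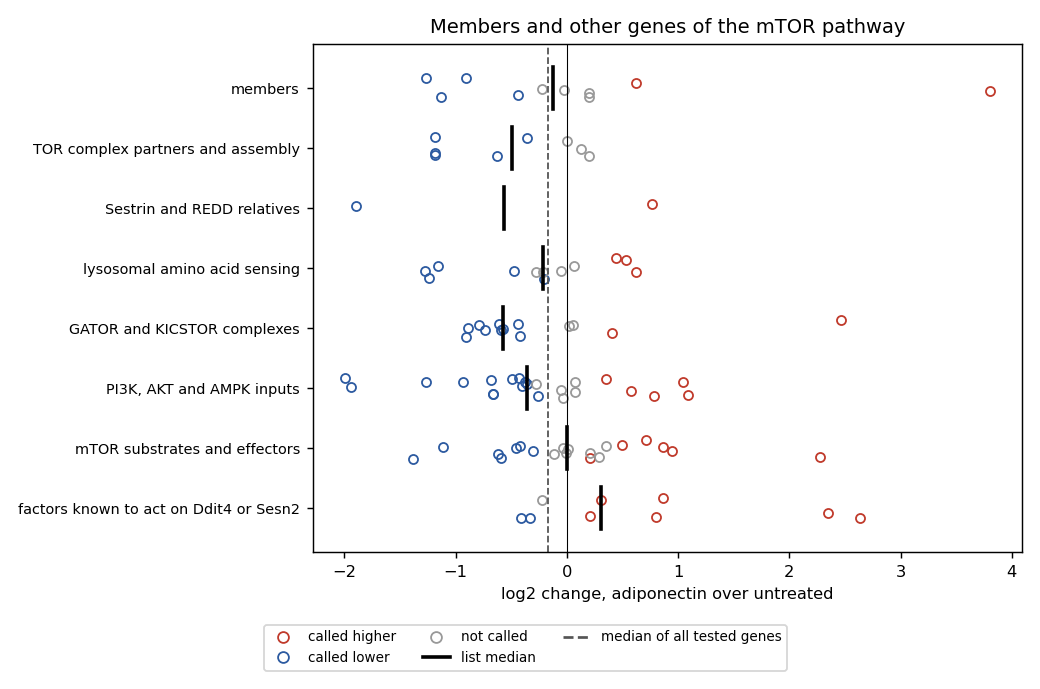
Log2 change of adiponectin over untreated for the 10 genes (top row, members) and for the measured genes of 7 lists of the mTOR pathway, 1 circle per gene coloured by its call, with each list's median as a bar and the median of all tested genes (-0.17) dashed. Ddit4 at 3.81 lies beyond every other gene shown, and the calls are those under loess, since no gene passed under median centring.

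Of 9 transcription factors known to act on Ddit4 or Sesn2, 6 rose (66.7%) and 2 fell (22.2%), with a median of 0.31. Over all tested genes these shares were 24.5% and 46.1%. The list was chosen with earlier results of these data known and was not tested as a set. The rises of Epas1, Atf4 and Foxo3 were not stable, as given below. Hif1a, the hypoxia-inducible factor subunit, measured 4589, 4490 and 4696 after adiponectin and 890, 977 and 849 without it, and its log2 change was 2.34 ± 0.088 (moderated SE, limma adjusted p = 1.90e-07). Cebpb rose to 66089, 60609 and 69951 from 11730, 8676 and 11468, a log2 change of 2.64 ± 0.091 (moderated SE, limma adjusted p = 1.23e-07). Both factors stayed positive under median centring without passing. So did Ddit4 and other genes with a large rise, such as Wdr59 (1.39) and Sgk1 (1.17). The median of all tested genes was -1.03 in that setting, so a large rise alone keeps a gene positive. Foxo1 rose by 0.86 (0.55 on a dimmer probe, -0.27 under median centring).

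The other factors gave smaller or less stable values. Epas1, the second hypoxia-inducible factor, rose by 0.80 on its brightest probe, but its other probes gave -0.73 and 0.16, the mean over probes was 0.08 (limma adjusted p = 0.409) and median centring gave -0.37. Atf4, the factor of the integrated stress response that acts on both Ddit4 and Sesn2, passed narrowly at 0.31 (limma adjusted p = 0.0443), and its dimmer probe gave 0.67. The Atf4 call was lost in 8 of the alternatives, with 0.13 without replicate 2 (limma adjusted p = 0.217), 0.37 without replicate 3 (limma adjusted p = 0.0602) and -0.69 under median centring. In others its rise was larger and passed, with 0.49 as a mean over its probes (limma adjusted p = 0.000729), 0.39 with a dye term (limma adjusted p = 0.00223) and 0.48 with arrays centred on the tested genes (limma adjusted p = 0.00361). Foxo3 rose by 0.21 (limma adjusted p = 0.0445), a call lost without any 1 of the arrays. Nfe2l2, which encodes NRF2, fell by 0.41 (limma adjusted p = 0.00259), and Trp53 fell by 0.33 (limma adjusted p = 0.00802), a call lost in 5 of the alternatives, among them when arrays were centred on the tested genes (-0.16, limma adjusted p = 0.119) and without replicate 3 (limma adjusted p = 0.0621). Nr3c1, the glucocorticoid receptor gene, did not pass at -0.22 (limma adjusted p = 0.0713), and its dimmer probe gave 1.07. It passed in opposite directions under 2 alternatives, at 0.42 as a mean over its probes (limma adjusted p = 0.00138) and at -0.29 with a dye term (limma adjusted p = 0.00978).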

How the data were processed

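Total RNA of 3 pairs of treated and untreated macrophage samples was measured on 3 Agilent 2-colour arrays, with Cy3 marking the treated RNA on replicates 1 and 3 and Cy5 marking it on replicate 2, per the labels. All ratios were turned to treated over untreated from these labels. The intensity values deposited are unnormalized medians of each spot and its background, per the file headers, and the deposited log10 ratio (Cy5 over Cy3) comes from signals that Agilent Feature Extraction 10.7.3.1 corrected and dye-normalized. For the authors' deposited log2 table the steps are not given in the sources used here. It correlated at 0.990 to 0.994 with loess ratios without background correction.

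Intensities were corrected with normexp (offset 50) and normalized within arrays by loess (R 4.3.3, limma 3.58.1). Control spots had weight 0, and outlier spots (299 to 323 per array) were left out. No spot was saturated. Channel levels were scaled between arrays by Aquantile. Of 55681 probes, 27235 were named through a RefSeq table of GRCm38.p6, which also gave the promoter sequences. The array design was placed on mm9 per the file headers, and no coordinates were taken from it. A probe was kept if well above background in at least 3 of 6 channel readings, and the brightest probe stood for a gene. The 3 ratios were tested against 0 with lmFit and eBayes (2 residual and 6.21 prior degrees of freedom, median SE 0.088), with Benjamini-Hochberg adjustment over 13181 genes. A moderated SE draws a gene's variance towards that of all genes and differs from the spread seen over 3 arrays. The script was tested on simulated data.

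The members and gene lists were chosen with earlier results of these data known. Named were every member, up to 4 genes of largest change per list among those called with 1 sign on all arrays, every listed transcription factor, and the 3 genes nearest Ddit4 and Sesn2. Alternatives covered background correction, normalization, centring, filter, probe choice, a dye term and each replicate left out. All 3 arrays share 1 slide and 1 scan time. The number of arrays limits the precision.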

Additional observations from a re-analysis of the deposited data

How the results depend on the processing

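The calls rest on loess. With median centring in its place the median log2 change of all tested genes moved to -1.03, no gene passed in limma (5317 had an unadjusted p under 0.05), and the counts of higher and lower calls were 0 and 0 for members, for pathway genes and for all genes. Log2 changes then turned to -0.75 for Rictor, -0.55 for Rheb, -0.55 for Akt1s1, -0.091 for Irs2, -0.55 for Fnip1, -0.18 for Tfeb, -0.27 for Foxo1, -0.37 for Epas1 and -0.69 for Atf4. On that setting replicate 2 differed widely from the other arrays, and the cause was not tested. Members called higher numbered 4 with normexp without an offset, with the scanner software's ratio, in the authors' deposited table and with arrays centred on the tested genes. The Sesn2 log2 change was 0.061, 0.035, 0.022 and 0.15 in these settings, 0.0090 without background correction, -1.18 under median centring and -0.087 to 0.032 with 1 array left out. Nr3c1 became 0.42 as a mean over its probes and passed. Leaving out 1 array gave 2 to 3 members higher and 4 lower. Ddit4, Mtor, Rptor, Mlst8 and Rheb kept their direction and call in each alternative run except median centring. Under median centring all of these lost the call, and only Rheb changed direction. The slide as a block could not be fitted, since all arrays share it. The ratio within each array already pairs 1 treated with 1 untreated sample. Signal over background limits Tsc2, Deptor and the dimmest Rheb probe, among others. The log2 change of Lpin1 was -1.11 as reported, -1.96 for normexp without an offset and -2.44 for the scanner software's ratio. In the same order Mios gave -0.89, -1.42 and -1.85, Insr -1.27, -2.03 and -2.26, and Foxo3 0.21, 0.51 and 0.89. Cebpb moved little, with 2.64, 2.65 and 2.61.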
